A study of Mus musculus with 9 samples.

Results

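The tripartite motif (TRIM) genes of the mouse kidney were followed through endotoxin exposure and thymosin β4 treatment. Members were the genes named Trim plus a number and an optional letter, with a mean of at least 0.5 fragments per kilobase of transcript and M of mapped fragments (FPKM) over the 9 libraries: 40 of the 67 such genes in the table, and 40 of the 15015 genes of any name that reached this level, out of 34310. Just inside the minimum lay Trim36 and Trim30b, with mean FPKM of 0.62 and 0.674, and just outside it Trim34b and Trim29, with 0.495 and 0.452. Poly(A) RNA of fresh kidney tissue was sequenced from 3 groups of 3 mice. The first received saline, the second lipopolysaccharide (LPS), a Gram-negative cell wall component that triggers innate immunity, and the third LPS together with the actin-sequestering peptide thymosin β4 (LPS+Tβ4). The labels give no strain, sex, age, genotype, dose, route or time. The study's title places the comparison in sepsis-associated acute kidney injury.

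TRIM proteins carry a RING finger, B-box zinc fingers and a coiled coil at the amino end, followed by a varying carboxy-terminal domain that recognises the target. The RING finger recruits a ubiquitin-charged conjugating enzyme, so that most members act as E3 ubiquitin ligases. Many members, above all those ending in a SPRY (B30.2) domain, are induced by interferon and act in antiviral defence or tune the signalling of pattern receptors such as the LPS receptor TLR4. Others work far from immunity, in chromatin repression, muscle turnover or microtubule organisation.

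Libraries held 53.0 to 62.0 M counts. Levels below are counts per M after TMM scaling (CPM), which serve to compare 1 gene between libraries, and FPKM, which also divide by transcript length and serve to compare genes. A set of 5 urothelial markers split the libraries across groups: their summed level was 45.9 to 86.5 CPM in saline replicates 2 and 3, LPS replicates 1 and 2 and LPS+Tβ4 replicate 3, and 0.754 to 2.12 CPM in the other 4. The markers of proximal tubule summed to 7438 to 10202 CPM in saline kidneys, 349 to 2498 in LPS and 924 to 1485 in LPS+Tβ4, so the labelled tissue was recognisable in every library. In tissue RNA, fewer cells of a type and less RNA per cell cannot be told apart, here or in any result below.

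Saline kidney carried a broad TRIM repertoire at modest level. Trim44, which has a ubiquitin-protease-type zinc finger in place of the RING, was highest at 24.4 ± 2.23 FPKM (mean ± SD, n = 3, as for all such values). It was followed by Trim7, which binds the glycogen primer glycogenin, at 14.5 ± 1.35, the RIG-I ligase Trim25 at 13.4 ± 1.33 and the KRAB zinc finger corepressor Trim28 at 13.2 ± 1.28 FPKM. The last 3 were within their spread of each other, whereas Trim44 lay above all of them. Trim41 at 10.7 ± 1.26 and Trim8 at 9.94 ± 1.04 FPKM came next and did not differ beyond their spread. At the low end stood Trim6 at 0.118 ± 0.00606, the RING-less mitochondrial adaptor Trim14 at 0.113 ± 0.063, Trim72 at 0.0664 ± 0.0679 and Trim30b at 0.0306 ± 0.0287 FPKM. In LPS kidney the order of FPKM levels was different: Trim30a, at 1.54 ± 0.481 in saline, stood first at 21.9 ± 5.04, followed by Trim44 at 19.3 ± 5.49, Trim41 at 18.9 ± 1.06 and Trim28 at 18.1 ± 3.19 FPKM. These 4 overlapped within their spread.

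**Figure D1:**
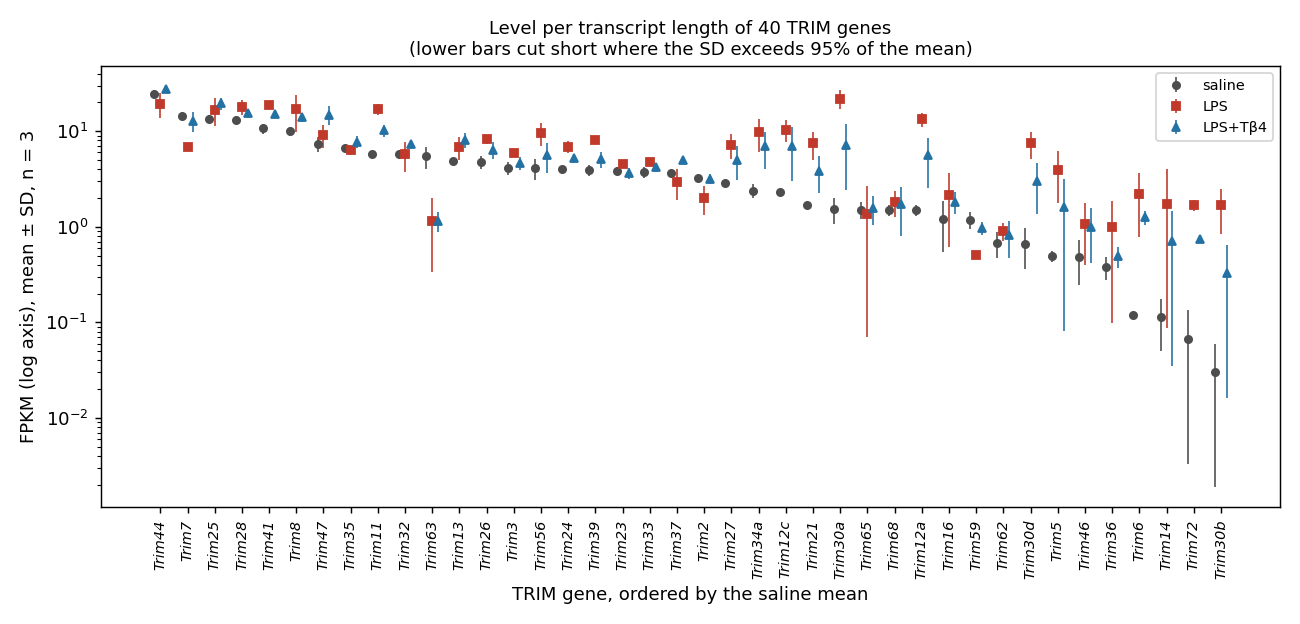
FPKM of the 40 TRIM genes on a logarithmic axis, as the mean of 3 libraries per group with the SD as bars (lower bars shortened where they would reach 0). Trim44 leads in saline at 24.4 FPKM, while Trim30a moves from 1.54 FPKM in saline to 21.9 in LPS.

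The comparison of LPS with saline asked which members respond to endotoxin. The response was broad and mostly upward: 18 of the 40 members rose, 5 fell and 17 did not pass the test (edgeR quasi-likelihood test, Benjamini-Hochberg adjusted p under 0.05 over all 15015 genes). Over all genes, the same test called 20.9% higher and 22.2% lower, so rises among TRIM genes (45%) were over the background share, and falls were under it. The median log2 change was 0.63 over the members and 0.02 over all genes. Among 61 RING finger genes named Rnf, another group of ubiquitin ligases, 13 rose (21.3%), 12 fell, and the median was 0.14. The minimum level was a mean over treated libraries too, and 7 members (Trim5, Trim6, Trim14, Trim30b, Trim36, Trim46 and Trim72) were under 0.5 FPKM in saline, so that their selection favoured a rise. Of the other 33, 13 rose and 5 fell. Of the rises, 14 were at least 2-fold, and so were 3 of the falls.

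**Figure D2:**
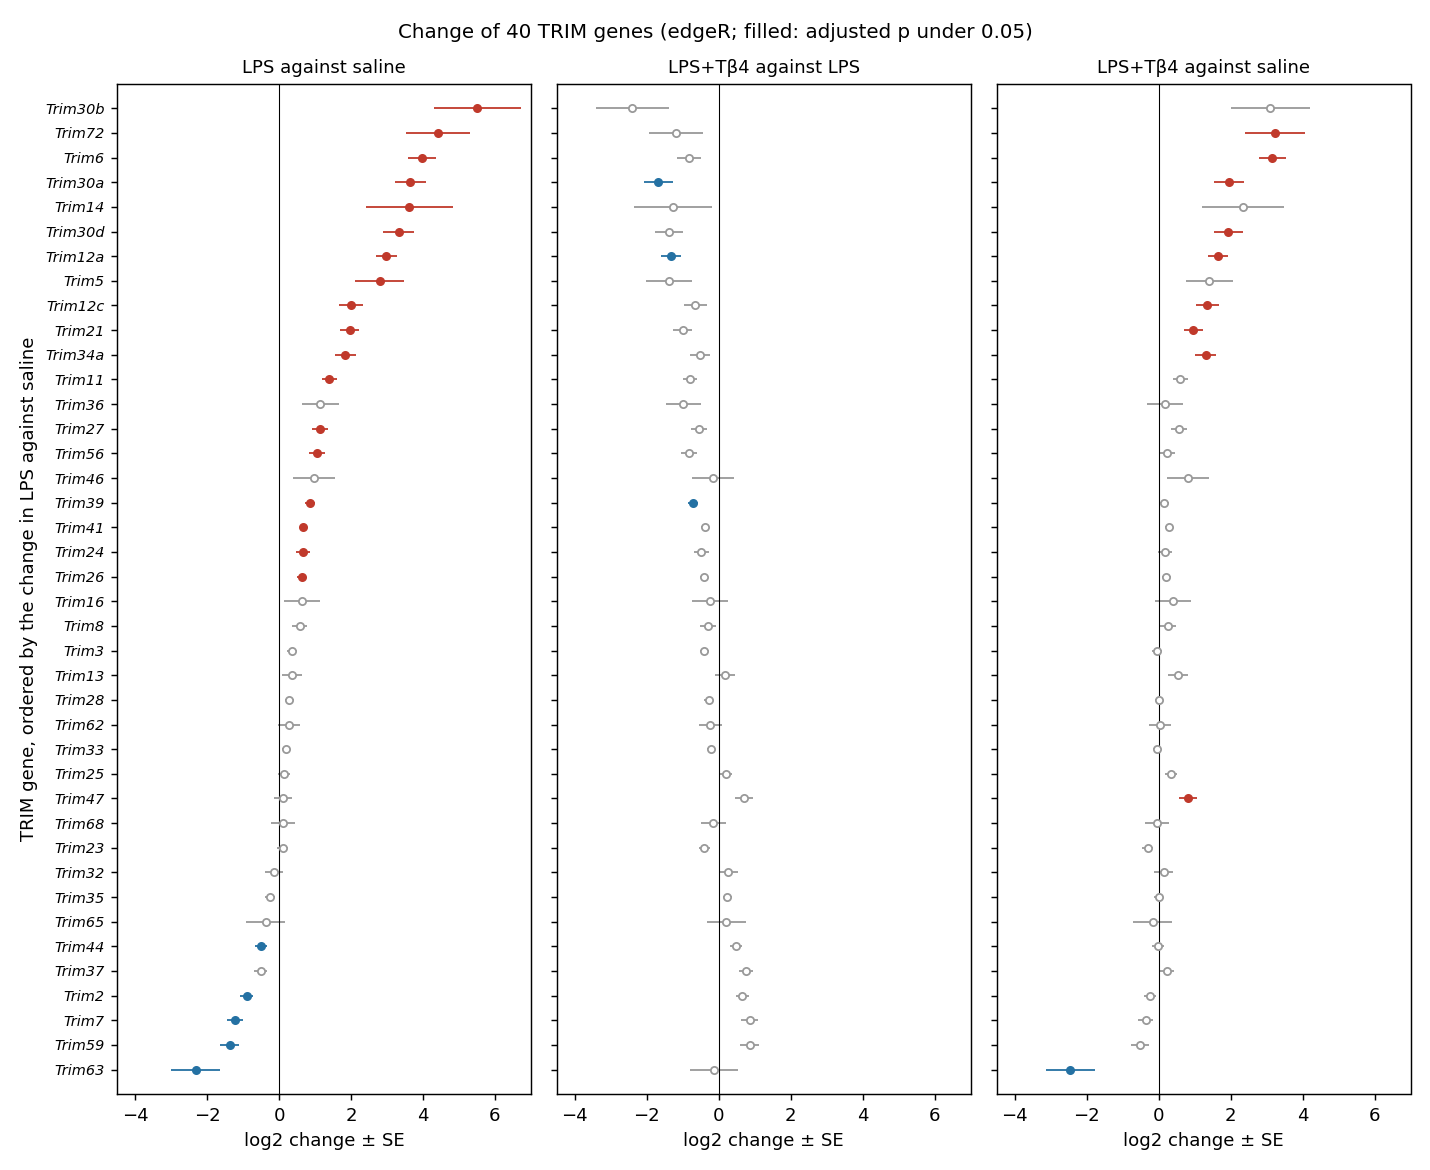
Log2 fold change with its SE for the 40 TRIM genes in the 3 comparisons (edgeR), filled where the adjusted p was under 0.05. Rises dominate in LPS against saline (18 of 40), 3 genes are filled in LPS+Tβ4 against LPS, all to the left of 0, and 10 in LPS+Tβ4 against saline.

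A block of risen genes lay together in the genome. On chromosome 7, between 104218793 and 104507849 (GRCm38), 10 TRIM genes lie within 289 kb: in order Trim6, Trim34a, Trim5, Trim12a, Trim34b, Trim12c, Trim30b, Trim30c, Trim30a and Trim30d. They are the mouse counterpart of the locus that in primates holds the retroviral restriction factor TRIM5. All 8 that reached the minimum level rose with LPS, by a median of 3.15 on the log2 scale, while Trim34b and Trim30c were under it. For 3 of the 8 (Trim5, Trim6 and Trim30b, under 0.5 FPKM in saline) the minimum itself favoured a rise, and Trim34b did not pass in a fit without a minimum (1.04 ± 0.53, adjusted p = 0.24).

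Short stretches before the start sites of 5 members are shown because they hold the core of an interferon-response element; most risen members with an entry do not. The interferon-stimulated response element, found before many interferon-induced genes, has the core GAAA, any 2 bases, GAAA. It was searched for on either strand in the 250 bases before each RefSeq start site (GRCm38.p6), and 31 of the 40 members had an entry. It was found in 5 genes (16.1%): Trim5, Trim12c, Trim30a and Trim30d of the cluster, and Trim26 on chromosome 17. Over the 10499 tested genes with an entry, 347 (3.31%) held it. The 5 members rose with LPS, as did 116 (33.4%) of the 347 genes with the core, against 20.9% of all genes tested; 2 pairs of the 5 are copies, described below, so this count carries little. The 60-base stretches below run 5′ to 3′ on the gene's strand, all before the start site, with the core in capitals, where it reads as TTTC, 2 bases, TTTC.
Trim5, chr7:104288121-104288180, minus strand, core ending 39 bases before the start: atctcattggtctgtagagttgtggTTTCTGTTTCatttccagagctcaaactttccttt
Trim12c, chr7:104353363-104353422, minus strand, 19 bases before the start: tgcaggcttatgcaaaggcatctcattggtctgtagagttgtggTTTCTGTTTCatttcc
Trim30a, chr7:104465195-104465254, minus strand, 26 bases before the start: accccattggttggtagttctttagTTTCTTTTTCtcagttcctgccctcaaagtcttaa
Trim30d, chr7:104507856-104507915, minus strand, 31 bases before the start: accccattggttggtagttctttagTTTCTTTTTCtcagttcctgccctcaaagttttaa
Trim26, chr17:36836961-36837020, plus strand, 144 bases before the start, with 2 overlapping cores: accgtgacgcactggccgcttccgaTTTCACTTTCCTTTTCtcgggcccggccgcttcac

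The stretches fall into families. Trim30a and Trim30d share an unbroken run of 118 bases around the core, and Trim5 and Trim12c share 63 bases around theirs, so these matches are copies rather than independent occurrences. Between the pairs, the longest shared run was 8 bases. In the windows of Trim6, Trim34a, Trim12a and Trim30b these letters were not found. A second element, the interferon gamma activation site with the core TTC, any 3 bases, GAA, was found before Trim46 only (3.23% of 31 members, against 7.33% of tested genes), and Trim46 did not pass the test in any comparison. A match describes the letters in this window and no more.

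Trim30a (chromosome 7, 104409025 to 104465193), known for dampening TLR signalling through the TAB proteins, had 9.74, 8.53 and 5.02 CPM in saline and 102, 112 and 78.9 CPM in LPS. The groups were far apart, with a log2 change of 3.65 ± 0.44 (SE) and an adjusted p of 0.00043. Trim12a (104299894 to 104315466) had 11.3, 11.2 and 9.19 CPM in saline and 86.9, 85.3 and 78.4 CPM in LPS, a change of 2.98 ± 0.29 (adjusted p = 2e-04). The LPS libraries of Trim12a lay close together, and the rise was 7.91-fold. Trim30d (104470014 to 104507849) went from 3.27, 4.09 and 1.69 to 36, 30.9 and 23.8 CPM (3.32 ± 0.43, adjusted p = 0.00063). Trim12c (104338754 to 104353362) went from 10.3, 9.48 and 11.6 to 43.4, 50.8 and 31.9 CPM (2.00 ± 0.33, adjusted p = 0.0018). As in Trim30a, LPS replicate 3 was the lowest of its group for both genes, and the groups did not overlap.

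Trim6, a ligase that assembles free ubiquitin chains for interferon signalling, had 0.787, 0.708 and 0.68 CPM in saline and 18.3, 7.84 and 8.17 CPM in LPS (3.98 ± 0.39, adjusted p = 2e-04). Trim5, the retroviral restriction factor of primates, had 2.66, 1.74 and 2.35 CPM in saline and 19, 21.6 and 6.34 CPM in LPS (2.80 ± 0.68, adjusted p = 0.011). Trim34a had 8.37, 8 and 6.21 CPM in saline and 33.8, 27.6 and 19.3 CPM in LPS (1.84 ± 0.29, adjusted p = 0.0016). All 3 were higher in every LPS library than in any saline library, Trim6 from a low level with a tight spread. Trim30b, with 0.565, 0.311 and 0 CPM in saline, had 18.1, 14.4 and 7.45 CPM in LPS; its change of 5.51 ± 1.20 (adjusted p = 0.0066) was numerically the largest of the family and rests on a near-zero baseline. Copies in the cluster can share reads. Of all 100-base stretches in the annotated exons, 21% of those of Trim34a also occur in Trim34b, 11.7% of those of Trim5 in Trim12a or Trim12c, and 8.05% of those of Trim12c in Trim5 or Trim12a. For Trim30a and Trim30d the shares were 4.41% and 4.57%, shared with each other, for Trim12a it was 2.87%, and for Trim6 and Trim30b it was 0. The split of reads between Trim34a and its copy is therefore the least certain.

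**Figure D3:**
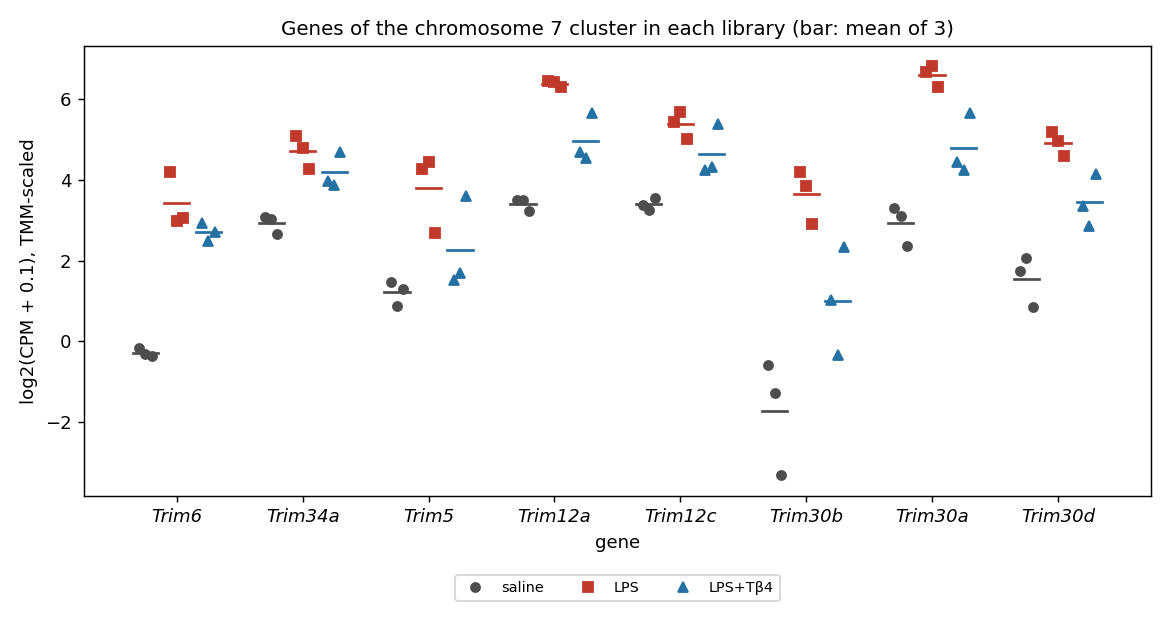
Level of the 8 tested genes of the chromosome 7 cluster in each library, as log2(CPM + 0.1), with the mean of each group as a bar. In all 8 genes every LPS library lies above every saline library, and the LPS+Tβ4 means lie between those of the other groups.

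**Figure D4:**
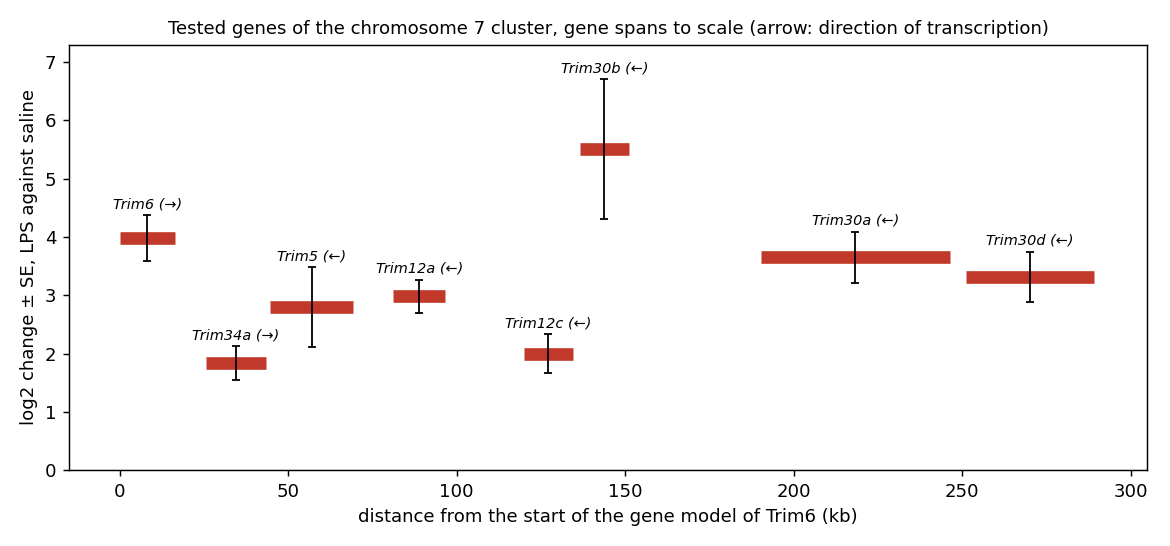
Map of the 8 tested cluster genes over 289 kb by distance from the first gene, with their log2 change in LPS against saline. Trim34b and Trim30c, under the minimum level, are not drawn. The rises range from 1.84 for Trim34a to 5.51 for Trim30b.

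Risen SPRY-domain ligases were also found outside the cluster. Taken with it, 15 of 22 tested members listed as SPRY-type with a RING finger rose and Trim7 fell, with a median change of 1.26. Over all genes tested, 20.9% rose and 22.2% fell. The 15 include the 8 genes of the cluster. Trim5, Trim6, Trim30b and Trim72 were under 0.5 FPKM in saline, so the minimum favoured their rise. The list, which includes Trim12a, was not checked against protein sequences. Trim21, the cytosolic receptor that binds antibody-coated virus, had 7.56, 7.17 and 8.09 CPM in saline and 35.3, 31.9 and 21.8 CPM in LPS (1.96 ± 0.27, adjusted p = 0.0008). Trim11, known in the clearance of misfolded proteins, had 28.7, 22.6 and 25.3 CPM in saline and 49.9, 75.5 and 76.6 CPM in LPS (1.40 ± 0.20, adjusted p = 0.001). Trim27, first found as part of a fusion with the RET kinase, had 19.6, 18.7 and 20.1 CPM in saline and 50.5, 39.9 and 37 CPM in LPS (1.13 ± 0.22, adjusted p = 0.0043). None of these 3 overlapped between groups, and each at least doubled. Trim21 lies on the same chromosome as the cluster but apart from it, at 102557921 to 102565486.

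Smaller rises were found in Trim39, Trim41 and Trim26, which were well expressed in saline. Trim39, a binding partner of the apoptosis regulator MOAP-1, had 32.6, 36.9 and 34.4 CPM in saline and 57.7, 65.8 and 66.8 CPM in LPS (0.87 ± 0.14, adjusted p = 0.0018). Trim41 had 42.4, 46.8 and 47.2 CPM in saline and 67.8, 72.4 and 77.4 CPM in LPS (0.67 ± 0.10, adjusted p = 0.0013). The replicates were tight, so that changes below 2-fold passed. Trim26, encoded in the major histocompatibility complex, went from 37.6, 43.9 and 37.5 to 59.6, 64.4 and 60.4 CPM (0.63 ± 0.12, adjusted p = 0.0043). Trim72, known from membrane repair in striated muscle, was at 0, 0.173 and 0.386 CPM in saline and at 4.1, 4.2 and 3.91 CPM in LPS (4.42 ± 0.88, adjusted p = 0.0045). The markers of striated muscle, at 5.49 to 10.2 CPM in saline and 1.11 to 7.46 CPM in LPS when summed over 8 genes, were too low to be tested, and their part in the level of Trim72 was not tested.

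Members outside the SPRY class with a RING finger moved in both directions. Trim56, an antiviral ligase without a further named domain, had 38.7, 55 and 44 CPM in saline and 109, 101 and 77 CPM in LPS (1.06 ± 0.23, adjusted p = 0.0062). Trim24, a nuclear receptor cofactor with a PHD finger and bromodomain, had 43.8, 41.8 and 39.1 CPM in saline and 46.9, 71.3 and 78.2 CPM in LPS (0.66 ± 0.20, adjusted p = 0.03). The LPS libraries of Trim24 were spread, and replicate 1 lay just above saline. Its call was lost when any saline library or LPS replicate 2 or 3 was left out (adjusted p = 0.05 rounded, 0.075 and 0.076 without saline replicates 1, 2 and 3, and 0.064 and 0.085 without LPS replicates 2 and 3). Trim14, which has a SPRY domain and no RING finger and acts beside the mitochondrial antiviral protein MAVS, had 0.343, 0.915 and 0.552 CPM in saline and 18, 3.76 and 0.689 CPM in LPS (3.62 ± 1.2, adjusted p = 0.038). LPS replicate 3 lay within the saline range, so the rise of Trim14 rests on the other LPS libraries. Without LPS replicate 1 the change was 1.92 (adjusted p = 0.14), and the adjusted p was 0.11, 0.074 and 0.11 without saline replicates 1, 2 and 3. Its high LPS libraries were those with urothelial transcripts; with the urothelial level as a term in the fit, the change was 3.32 (adjusted p = 0.0062). Trim14 also overlaps Nans on the opposite strand over 9852 bases, and Nans rose by 0.60.

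5 members fell with LPS, each from a different structural group. Trim7 (chromosome 11, 48826140 to 48851187) had 146, 135 and 122 CPM in saline and 48.5, 62.2 and 62.1 CPM in LPS (-1.22 ± 0.23, adjusted p = 0.0033). It was the only one of the 22 SPRY-type members with a RING finger that fell in this fit. Trim2, the NHL-repeat ligase known for protecting axons through neurofilament turnover, had 80.2, 77.3 and 77.5 CPM in saline and 52.1, 32.9 and 42.2 CPM in LPS (-0.89 ± 0.18, adjusted p = 0.0044). Trim59, anchored in the membrane of the endoplasmic reticulum, had 6.31, 4.44 and 3.97 CPM in saline and 1.64, 2 and 2.05 CPM in LPS (-1.37 ± 0.26, adjusted p = 0.0035). No library of Trim7, Trim2 or Trim59 fell in the range of the other group.

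Trim63, also called MuRF1, the ligase that marks muscle proteins for breakdown during atrophy, had 20.9, 12.8 and 23.6 CPM in saline and 0.627, 5.88 and 4.95 CPM in LPS (-2.32 ± 0.69, adjusted p = 0.024). Every LPS library was below every saline library, but the spread within each group was wide. The call was lost without saline replicate 1 (-2.21, adjusted p = 0.062) or 3 (-2.11, adjusted p = 0.07). Striated muscle markers summed to 10.2 CPM or less in every library, and their part in the level of Trim63 was not tested. Trim44 had 160, 166 and 176 CPM in saline and 135, 89.8 and 128 CPM in LPS (-0.51 ± 0.17, adjusted p = 0.043). This fall did not hold: leaving out any 1 of 8 libraries, all but LPS replicate 1, ended the call, with adjusted p of 0.05 to 0.15, and 16 of 22 alternative analyses did so (adjusted p up to 0.18). The 7 proximal tubule markers fell strongly in the same libraries, with 5 called lower, and the part of this in the 5 falls was not tested.

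**Figure D5:**
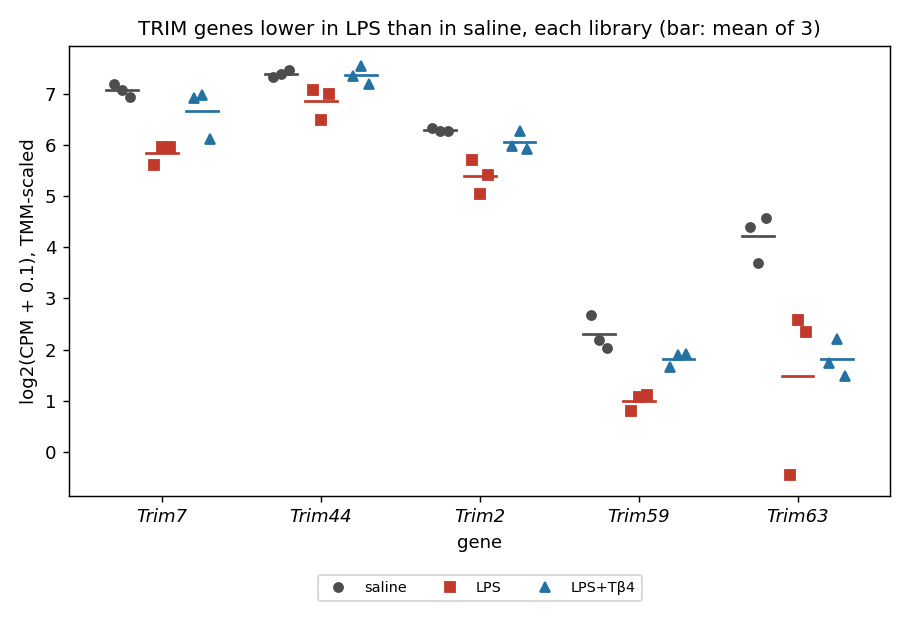
Level of the 5 TRIM genes called lower in LPS than in saline, in each library, as log2(CPM + 0.1) with group means as bars. LPS libraries lie below saline for all 5, with the smallest gap in Trim44, and the LPS+Tβ4 libraries of Trim63 stay within 2.71 to 4.49 CPM.

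Neighbouring members did not always move together. Trim41 and Trim7 lie head to head on chromosome 11 with 8786 bases between them, and Trim41 rose while Trim7 fell. Trim47 and Trim65, 11608 bases apart on the same strand, did not pass the test in this comparison. Genes on the other strand matter here, because the libraries keep the strand but the sources used here do not say whether counting did. Trim7 overlaps Gm16170 over 7540 bases and Gm12184 over 516 bases; Gm16170 fell by 0.71 and Gm12184 rose by 0.87, both on the log2 scale. Trim12a overlaps Gm15133 over 448 bases, and Gm15133 rose by 4.29 from 0.165 to 0.323 CPM in saline, a level far under that of Trim12a.

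Several of the best-known immune and chromatin members did not pass the test. Trim25, which ubiquitinates the RNA sensor RIG-I, had 89.9, 95.7 and 95.1 CPM in saline and 127, 97.5 and 84.3 CPM in LPS (0.14 ± 0.16, adjusted p = 0.53). The LPS libraries of Trim25 lay on either side of saline. Trim28, the corepressor of endogenous retroviruses, had 63.6, 66.5 and 70.7 CPM in saline and 85.1, 70.8 and 89.3 CPM in LPS (0.29 ± 0.12, adjusted p = 0.077), with no overlap between groups. Trim28 passed without LPS replicate 2 (0.43, adjusted p = 0.018) and in DESeq2 (0.31, adjusted p = 0.042). Trim33, the TIF1 gamma regulator of SMAD signalling, was at 40.7 to 46.6 CPM in saline and 48.2 to 53.8 CPM in LPS. In all, 16 members passed in none of the 3 comparisons: Trim3, Trim8, Trim13, Trim16, Trim23, Trim25, Trim28, Trim32, Trim33, Trim35, Trim36, Trim37, Trim46, Trim62, Trim65 and Trim68. A p over the threshold does not show that these did not change.

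The annotation in the table gives another view that the choice of members did not use. Of 20 members annotated to the innate immune response, 12 rose and 1 (Trim59) fell, and of the other 20, 6 rose and 4 fell. Over all genes tested, 20.9% rose and 22.2% fell, beside rises of 60% with the term and 30% without it. Trim5, Trim6, Trim14 and Trim30b, all annotated and risen, were under 0.5 FPKM in saline, so the minimum favoured their rise. Of 8 members annotated to the defense response to virus, 7 rose, with a median change of 2.89, and the remaining one was Trim25. All of these 7 but Trim11 are genes of the chromosome 7 cluster, so the count largely repeats the result above. The 7 are also among the 12 risen members annotated to the innate immune response. Such terms were in part assigned because a gene responds to infection, and no test between the groups was made.

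Kidneys given LPS+Tβ4 were then set against those given LPS alone, to see what the peptide altered in the family. It shares the LPS libraries with the comparison above, so a high or low LPS library moves both. 3 members were lower in LPS+Tβ4: Trim12a, Trim30a and Trim39. No member passed in the other direction in edgeR with TMM scaling of all 9 libraries (6 were higher at an unadjusted p under 0.05, against 16 lower). Other settings did call members higher: 3 in edgeR with upper-quartile scaling, 4 in DESeq2 and 1 in limma on FPKM. Over all genes, 2.33% were called lower and 4.5% higher. The members' median change was -0.39, against -0.01 over all genes, and 29 of 40 estimates were below 0. The 7 members under 0.5 FPKM in saline had their highest mean in LPS, so their selection favoured a fall here. All 7 of their estimates were below 0, which lowers the median. The 3 members called lower were among the other 33.

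Trim12a had 86.9, 85.3 and 78.4 CPM in LPS and 25.7, 23.3 and 50.5 CPM in LPS+Tβ4 (-1.33 ± 0.28, adjusted p = 0.032). Trim30a had 102, 112 and 78.9 CPM in LPS and 21.5, 18.9 and 50.5 CPM in LPS+Tβ4 (-1.68 ± 0.40, adjusted p = 0.045). Trim39 had 57.7, 65.8 and 66.8 CPM in LPS and 42.6, 31.6 and 41.6 CPM in LPS+Tβ4 (-0.72 ± 0.14, adjusted p = 0.029). Groups did not overlap in these genes, but each call was close to the threshold. Leaving out any of 7 libraries (the 3 saline ones, replicates 2 and 3 of LPS, replicates 1 and 2 of LPS+Tβ4) ended all 3 calls, while the changes stayed between -1.37 and -1.13 for Trim12a, -1.82 and -1.44 for Trim30a and -0.79 and -0.59 for Trim39 (adjusted p = 0.054 to 0.17). In a fit of only the 6 libraries compared the adjusted p was 0.12 for each of the 3, and over all 15015 genes that fit called 3. The adjusted p of Trim39 was 0.052 and 0.06 by limma on log2 FPKM with pseudocounts of 1 and 0.1, and those of Trim30a and Trim39 were 0.063 and 0.05 with no filter on low values.

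In the cluster on chromosome 7, LPS+Tβ4 replicate 3 was the highest of its group in 7 of the 8 tested genes, and LPS replicate 3 was the lowest of its group in 7 of 8. Trim5 shows this plainly, with 2.76, 3.13 and 12.1 CPM in LPS+Tβ4 beside 19, 21.6 and 6.34 CPM in LPS (-1.39 ± 0.64, adjusted p = 0.22). LPS+Tβ4 replicate 3 was rich in urothelial transcripts (65.5 CPM over 5 markers, against 1.03 and 0.754 in the others of its group), and LPS replicate 3 was poor in them (0.924, against 54.8 and 45.9). With the urothelial level as a term, Trim12a changed by -1.28 (adjusted p = 0.025), Trim30a by -1.62 (adjusted p = 0.038) and Trim39 by -0.70 (adjusted p = 0.033), and 6 members were called lower. With LPS replicate 3 and LPS+Tβ4 replicate 3 both left out, a choice made after seeing these values, 12 members were called lower and 2 higher. The count of lower calls thus ranged from 0 to 12 over the alternatives.

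Other members changed by amounts that did not pass. Trim21 had 35.3, 31.9 and 21.8 CPM in LPS and 10.8, 13.6 and 20.2 CPM in LPS+Tβ4 (-1.0 ± 0.26, adjusted p = 0.059). It passed when LPS+Tβ4 replicate 3 was left out (-1.31, adjusted p = 0.027) and in DESeq2 (adjusted p = 0.0054). Trim11 had 49.9, 75.5 and 76.6 CPM in LPS and 45.8, 33.4 and 37.2 CPM in LPS+Tβ4 (-0.80 ± 0.20, adjusted p = 0.051). On the other side, Trim7 had 48.5, 62.2 and 62.1 CPM in LPS and 120, 126 and 69.1 CPM in LPS+Tβ4 (0.86 ± 0.23, adjusted p = 0.058). Trim37, mutated in mulibrey nanism, had 28.8, 17.4 and 22.4 CPM in LPS and 36.5, 43.1 and 35.4 CPM in LPS+Tβ4 (0.75 ± 0.19, adjusted p = 0.055). None of these 4 had an adjusted p under 0.05 in the fit of all 9 libraries. Trim63, at 3.25, 4.49 and 2.71 CPM in LPS+Tβ4, overlapped its LPS values (-0.13 ± 0.66, adjusted p = 0.93).

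Against saline, kidneys given LPS+Tβ4 showed 9 members higher and 1 lower in edgeR, where all genes had 12.3% higher and 11.8% lower. The members' median change was 0.25, against -0.00 over all genes. This comparison shares the saline libraries with the first. Trim6, Trim12a, Trim12c, Trim21, Trim30a, Trim30d, Trim34a and Trim72 were higher in both, and Trim63 was lower in both. Of the 33 members at or above the minimum in saline, 7 were higher and 1 lower.

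In the cluster, 6 of 8 members were called higher than in saline, beside 12.3% of all genes. All 8 estimates were above 0, with a median change of 1.80. Trim5, Trim6 and Trim30b were under 0.5 FPKM in saline, so the minimum favoured a rise in them. Trim6, at 7.55, 5.45 and 6.43 CPM in LPS+Tβ4, was 3.16 ± 0.38 higher than in saline on the log2 scale (adjusted p = 0.001). Trim30a was higher by 1.96 ± 0.41 (adjusted p = 0.0097), Trim30d by 1.94 ± 0.41 (adjusted p = 0.011) and Trim12a by 1.65 ± 0.28 (adjusted p = 0.0043). These 4 calls held in every alternative that was run. Trim12c (1.35 ± 0.32, adjusted p = 0.017) was lost without saline replicate 1 or 2 (adjusted p = 0.057 and 0.064), and Trim34a (1.31 ± 0.29, adjusted p = 0.012) without saline replicate 3 (adjusted p = 0.051). Trim5 (1.41 ± 0.65, adjusted p = 0.15) and Trim30b (3.11 ± 1.09, adjusted p = 0.072) did not pass.

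Outside the cluster, Trim72 was at 1.88, 1.72 and 1.73 CPM in LPS+Tβ4, above its 0 to 0.386 CPM in saline (3.23 ± 0.84, adjusted p = 0.025). Without saline replicate 2, or LPS+Tβ4 replicate 1 or 2, its adjusted p was 0.086, 0.064 and 0.052. Trim21, at 10.8, 13.6 and 20.2 CPM, was higher by 0.97 ± 0.26 (adjusted p = 0.03), a call that ended without any saline library (adjusted p = 0.072 to 0.093) or without LPS+Tβ4 replicate 2 or 3 (0.054 and 0.074). Trim47 was the member called here and not with LPS alone: it had 30.3, 23.4 and 20.2 CPM in saline, 31.4, 25.9 and 23.1 in LPS and 56.9, 42.7 and 31.2 in LPS+Tβ4 (0.83 ± 0.25 against saline, adjusted p = 0.042). The LPS+Tβ4 libraries of Trim47 were spread widely, and against LPS the change of 0.70 ± 0.25 did not pass (adjusted p = 0.12). The call against saline was lost without saline replicate 2 or 3 (adjusted p = 0.12 for each), LPS replicate 2 (0.05) or LPS+Tβ4 replicate 1 or 2 (0.14 and 0.085), and with the urothelial term (0.061). Trim63 was lower, with a change of -2.45 ± 0.69 (adjusted p = 0.033), and this call ended without any 1 of the 3 saline or 3 LPS+Tβ4 libraries (adjusted p = 0.052 to 0.1).

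Sensing and interferon genes moved strongly with LPS. Of 34 tested genes of RNA and DNA sensing and interferon signalling, 25 rose and the other 9 did not pass, with a median change of 1.26 (20.9% of all genes rose). Irf7, the amplifier of type I interferon, had 20.1, 19.6 and 11.4 CPM in saline and 339, 561 and 461 CPM in LPS (4.74 ± 0.29, adjusted p = 4.3e-05). Stat2 rose by 3.06 ± 0.24, Zc3hav1, the zinc finger antiviral protein, by 2.50 ± 0.19, Irf9 by 2.15 ± 0.13, the adaptor Myd88 by 2.09 ± 0.16 and the RNA sensor Ifih1 (MDA5) by 2.07 ± 0.13. Members' partners differed: the RIG-I gene Ddx58 rose by 1.82 ± 0.21 while its ligases Trim25 and Rnf135 (-0.32 ± 0.22, adjusted p = 0.27) did not pass.

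In LPS+Tβ4 against LPS, 6 of these 34 genes were lower, Ifih1, Irf1, Irf9, Stat2, Tbk1 and Zc3hav1, and the median was -0.44 (2.33% of all genes were lower). Each of the 6 calls ended in 5 to 14 of its alternatives, among them the fit of only the 6 libraries compared, which called 0 of 15015 genes lower and 3 higher. Stat2 had 192, 220 and 142 CPM in LPS and 61.5, 55.9 and 92.7 CPM in LPS+Tβ4 (-1.40 ± 0.23, adjusted p = 0.017). Tbk1, the kinase that activates Irf3, had 58.8, 90.9 and 95.1 CPM in LPS and 44, 44.2 and 47.9 CPM in LPS+Tβ4 (-0.85 ± 0.18, adjusted p = 0.032). Irf7 did not pass, at -0.42 ± 0.25 (adjusted p = 0.33). Against saline, 19 of the 34 were higher in LPS+Tβ4, with a median of 0.78, and Irf7 was 4.31 ± 0.29 higher.

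Within the ubiquitin system that TRIM ligases draw on, some genes rose and others did not pass. Of 29 tested genes of ubiquitin and ISG15 conjugation, 12 rose (41.4%) and Usp15 fell, with a median of 0.29. Over all genes, 20.9% rose and 22.2% fell. The largest rises were those of the ISG15 route: the ubiquitin-like modifier Isg15 (4.52 ± 0.36), its conjugating enzyme Ube2l6 (4.30 ± 0.43), its protease Usp18 (3.47 ± 0.41), its activating enzyme Uba7 (3.28 ± 0.47) and the ligase Herc6 (3.21 ± 0.26). Ube2l6 had 8.49, 9.81 and 10.2 CPM in saline and 179, 269 and 113 CPM in LPS. Smaller rises were called for Ube2e2 (0.98 ± 0.18), Ubb (0.95 ± 0.23), Ube2g2 (0.92 ± 0.16) and Ube2z (0.71 ± 0.13). Ube2g1 rose as well (0.52 ± 0.14, edgeR adjusted p = 0.015). Ube2d3 (0.62 ± 0.22, adjusted p = 0.046) and Ube2d2a (0.40 ± 0.14, adjusted p = 0.042) passed close to the threshold. The general activating enzyme Uba1 (0.12 ± 0.15), and Ube2n (-0.01 ± 0.12), which builds the chains used in TLR signalling, did not pass. In LPS+Tβ4 against LPS, Isg15 (-1.38 ± 0.31, adjusted p = 0.041) and Herc6 (-1.0 ± 0.24, adjusted p = 0.046) were lower, and these calls ended in 10 of 22 and 13 of 21 alternatives, the fit of only the 6 libraries compared included. Pml, a tripartite motif protein under another name that organises nuclear bodies, had 23.7, 27.6 and 22.7 CPM in saline, 54, 61.5 and 49.7 in LPS and 29.6, 25.4 and 33.9 in LPS+Tβ4. It rose by 1.16 ± 0.15 with LPS (adjusted p = 0.00067) and was lower in LPS+Tβ4 than in LPS (-0.90 ± 0.15, adjusted p = 0.019), a call lost in 5 of 22 alternatives, again including the 6-library fit (adjusted p up to 0.091). Its midline relatives Mid1 and Mid2 did not pass in any comparison.

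Transcripts of other cells also differed between the groups. Summed over 8 markers, neutrophil transcripts were at 0.743 to 2.37 CPM in saline, 23.7 to 48.9 in LPS and 26.4 to 89.9 in LPS+Tβ4, and 4 of the 5 tested rose with LPS. Macrophage markers were at 65.4 to 118, 66.1 to 81.1 and 104 to 129 CPM, and lymphocyte markers at 4.56 to 7.74, 0.649 to 1.85 and 1.69 to 2.73 CPM, in the same order. Of the 7 macrophage markers tested, 1 rose and 2 fell with LPS. Erythroid markers, summed over 5 genes, were at 544 to 689 CPM in saline, 533 to 703 in LPS and 181 to 261 in LPS+Tβ4, and all 5 were lower in LPS+Tβ4 than in either other group. No list had a marker at 0 in all libraries, and the part of these cells in the TRIM changes was not tested.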

How the data were processed

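The table deposited by the authors holds a raw count and an FPKM value per Ensembl gene and library. Per the submitters' processing notes, cutadapt 1.9, HISAT2 2.2.1, StringTie 2.1.6, DESeq2, edgeR and the genome build GRCm38 were used; no source used here gives the counting program or its strand setting. Per the labels' protocols, libraries were poly(A)-selected and marked strand with dUTP.

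The test on counts was edgeR's quasi-likelihood fit (version 4.0.16, under R 4.3.3) of all 9 libraries without a covariate, after TMM scaling, over 15015 genes at or above 0.5 mean FPKM, with Benjamini-Hochberg adjustment and a threshold of 0.05. The SE is the change divided by the square root of F. Each library is 1 mouse. The chain was tested on simulated data.

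The members, gene lists and tests were chosen with earlier results of these data known. Any member could be named. Values per library were set for members called in LPS against saline with a log2 change of at least 1 in size, for those called in LPS+Tβ4 against LPS, and for Trim21, Trim25 and Trim28; other members' values per library were added after they were seen. Of each pathway list, up to 6 genes were named by smallest p, and Ddx58, Rnf135, Uba1 and Ube2n were chosen after their values were seen. The smaller rises of ubiquitin genes were also added after their values were seen. Same-numbered libraries were not treated as pairs. Alternatives included DESeq2 1.42.0 and limma 3.58.1 on log2 FPKM. Promoters came from RefSeq, and gene models for shared sequence from GENCODE. Figures were drawn with matplotlib 3.10.9.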

Additional observations from a re-analysis of the deposited data

How the results depend on the processing

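No called change of a TRIM gene reversed its direction in any of the 22 alternatives. Among changes that were not called, some did, such as that of Trim63 in LPS+Tβ4 against LPS (6 of 21 alternatives). With LPS against saline, 19 of 23 calls held in every alternative, the exceptions being Trim14 (lost in 8), Trim24 (7), Trim44 (16) and Trim63 (3). With LPS+Tβ4 against LPS none of the 3 calls held in all, Trim12a being lost in 9, Trim30a in 10 and Trim39 in 12. With LPS+Tβ4 against saline 4 of 10 did. Trim25 passed in LPS+Tβ4 against saline without LPS replicate 1 (0.38, adjusted p = 0.038). Members higher in LPS than in saline numbered 18, and 11 with a minimum mean FPKM of 5, where fewer genes are tested. Members lower numbered 5, against 2 with that minimum, 3 with only the 6 libraries compared, and 3 to 7 with each library left out in turn. Members higher in LPS+Tβ4 than in LPS numbered 0 as reported, against 3 with upper-quartile scaling, 4 with DESeq2, 1 with either limma fit, 1 with the minimum of 5, 1 with the urothelial term, 0 to 2 with each library left out, and 2 without LPS replicate 3 and LPS+Tβ4 replicate 3 together. Members lower numbered 3, against 10 with DESeq2, 5 with limma on log2(FPKM + 1), 1 without a filter, 0 with only the 6 libraries compared, 6 with the urothelial term, 0 to 9 with each library left out, and 12 without the pair named above. Members higher in LPS+Tβ4 than in saline numbered 9, and 5 to 12 with each library left out. Members lower numbered 1, against 0 with the minimum of 5, 2 with the urothelial term, 0 to 1 with each library left out, and 0 without that pair. The cause of these shifts was not tested. With a replicate block the counts were 17 higher and 4 lower, 0 and 0, and 7 and 0 in the 3 comparisons. Between groups, deviations from the group means correlated at -0.63 to 0.26 for same-numbered libraries. For other pairs the range was -0.45 to 0.50, so the numbers gave no pairing. Limma on FPKM with a pseudocount of 1 moved the median of all genes to 0.11 in LPS against saline and 0.14 in LPS+Tβ4 against saline. At this depth genes near 0 in saline, such as Trim30b and Trim72, have wide errors.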

Other observations

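Among the 27 TRIM genes under the minimum level, a fit without a filter called 5 in LPS against saline, 1 in LPS+Tβ4 against LPS and 2 in LPS+Tβ4 against saline, where the same fit called 17.5%, 1.89% and 9.43% of all 34310 genes. Trim9, a brain ligase of synapses and axon guidance, was at 0.0341, 0.0275 and 0.0304 FPKM in saline, 0.0609, 0.0354 and 0.032 in LPS and 0.388, 0.613 and 0.458 in LPS+Tβ4. Its log2 change in LPS+Tβ4 against LPS was 3.40 ± 0.34 (edgeR without a filter, adjusted p = 0.0046), and against saline 3.72 ± 0.35 (adjusted p = 0.00041). Summed over 10 markers, neuron and glia transcripts were at 62.5 to 69.6 CPM in saline, 31.3 to 184 in LPS and 519 to 628 in LPS+Tβ4, and their part in the level of Trim9 was not tested. Rnf112, another gene of neural tissue, was the Rnf gene called higher in LPS+Tβ4 than in LPS.

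Trim29, an epithelial member, followed the urothelial split rather than the groups, with 0.0178, 0.626 and 0.765 FPKM in saline, 1.13, 0.395 and 0 in LPS and 0.0145, 0.0505 and 1.07 in LPS+Tβ4. Trim15 rose with LPS by 3.22 ± 0.86 (adjusted p = 0.03) and Trim17 by 1.99 ± 0.46 (adjusted p = 0.015) in the same unfiltered fit. Trim15 was at 0.0585 to 0.122 FPKM in saline and 1.54, 0.974 and 0.151 in LPS. It is the neighbour of Trim26, with 1292 bases between them, and Trim17 lies 4994 bases from Trim11; both of those neighbours rose too. Trim30c, in the chromosome 7 cluster, was listed at 0 in all 3 saline libraries and at 0.195, 0.526 and 1.02 FPKM in LPS. Trim61 went the other way, from 0.451, 1.08 and 0.217 to 0.154, 0.0336 and 0.0918 FPKM (-2.66 ± 0.72, adjusted p = 0.031). So did Trim75, from 0.0648, 0.344 and 0.0198 FPKM in saline to 0 in every LPS library (-8.07 ± 1.89, adjusted p = 0.039). In LPS+Tβ4 against saline, Trim10 was lower, from 0.102, 0.027 and 0.0448 FPKM to 0 in every LPS+Tβ4 library (-6.28 ± 1.46, adjusted p = 0.037). Both genes were near 0 throughout.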
